A study of Homo sapiens with 24 samples.

Results

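The genes described here encode the machinery that carries proteins between the endoplasmic reticulum (ER) and the Golgi. They are 38 listed genes in 4 groups: 12 of the COPII coat, 7 of the COPI coat, 14 cargo and KDEL receptors and 5 proteins of vesicle tethering and fusion. Each gene was read from its brightest probe set that the platform annotation gave to that gene alone. Of the 38, 36 had such a probe set among 19775 genes measured. KDELR2 and TMED7 had none and have no values here. KDELR3 lay at the floor of the scale (2.18) on nearly all arrays, with a highest value of 2.32, and was not tested. The other 35 passed the filter on low values together with 10626 other genes, 10661 in all.

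The study compared 4 human lines of T-ALL (acute lymphoblastic leukaemia of T cells), namely RPMI-8402, TALL-1, P12-ICHIKAWA and SUPT11, each given the compound NVS-ZP7-3 or its solvent DMSO for 16 h. DMSO was at 0.5% in every group, treated or not, and each of the 8 groups had 3 Affymetrix arrays, 24 in all. The labels state neither the dose nor the target of the compound. Compounds of this series are known from outside these data as inhibitors of the ER zinc transporter SLC39A7. The labels do not say whether the 3 samples of a group were separate cultures, so the p-values rest on the spread among the samples at hand, which may be technical. Each line is a single leukaemia-derived line, and values are relative within an array, so that fewer expressing cells and less RNA per cell cannot be told apart.

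COPII is the coat that buds vesicles from the ER. The exchange factor PREB loads the small GTPase SAR1 on the ER membrane, SAR1 recruits an inner layer of SEC23 and SEC24, in which SEC24 binds cargo, and SEC13 with SEC31A forms the outer cage. COPI works in the other direction: the coatomer complex returns escaped ER proteins from the Golgi, among them chaperones held by KDEL receptors. Arriving vesicles are caught by tethers such as giantin and fuse through SNARE proteins such as syntaxin 5. Many of these genes are known targets of the unfolded protein response, whose factors XBP1 and ATF6 bind short promoter elements.

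Promoter windows of 34 of the 38 genes were in the RefSeq table (build GRCh38.p14), and the 250 bases before the annotated start were searched on both strands. The core GACGTG of the unfolded protein response element was found in 11 of the 34 (32.4%), against 6.54% of 27305 promoters. Among tested genes, which leave out KDELR3, it was in 10 members and absent from 22, against 9.22% of 8820 promoters. The fuller form TGACGTGG, which contains that core, was found in 5 of the 34 (14.7%) against 0.667% of all promoters. Among tested genes it was in 4 members and absent from 28, against 0.782%. Neither the ER stress element (CCAAT and CCACG separated by 9 bases), nor its second form (ATTGG and CCACG separated by 1 base), nor the C/EBP-ATF element (TTGC followed directly by ATCA), nor the cyclic AMP element (TGAC followed directly by GTCA) was found in any of the 34, and all promoters held them at 0.0806, 0.0513, 0.82 and 1.77%, and those of tested genes at 0.136, 0.113, 0.397 and 3.07%. The 11 genes with the core were SEC24A, SEC24C, SEC13, SAR1A, COPB1, COPB2, COPG1, ARCN1, KDELR3, STX5 and GOSR2. The 5 with the fuller form are shown because it was the motif found with the highest ratio to all promoters. They were chosen after the search, with STX5 as the whole window since it was among the genes with the largest changes. SURF4, the gene called higher in 3 lines, is shown whole as a window without a match. All are printed 5′ to 3′ on the strand of the gene, with the fuller form or its reverse complement in capitals.

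STX5: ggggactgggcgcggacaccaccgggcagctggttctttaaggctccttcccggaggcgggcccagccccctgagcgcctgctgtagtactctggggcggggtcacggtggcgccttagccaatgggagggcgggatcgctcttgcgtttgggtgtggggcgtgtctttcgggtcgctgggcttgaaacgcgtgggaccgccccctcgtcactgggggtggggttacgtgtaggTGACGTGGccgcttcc
SEC24A: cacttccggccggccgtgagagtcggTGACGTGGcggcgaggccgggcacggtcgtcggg
COPB1: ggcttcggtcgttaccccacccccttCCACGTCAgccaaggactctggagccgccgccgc
COPB2: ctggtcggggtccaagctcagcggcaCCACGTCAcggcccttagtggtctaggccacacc
KDELR3: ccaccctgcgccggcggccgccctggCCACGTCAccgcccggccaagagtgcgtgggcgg
SURF4: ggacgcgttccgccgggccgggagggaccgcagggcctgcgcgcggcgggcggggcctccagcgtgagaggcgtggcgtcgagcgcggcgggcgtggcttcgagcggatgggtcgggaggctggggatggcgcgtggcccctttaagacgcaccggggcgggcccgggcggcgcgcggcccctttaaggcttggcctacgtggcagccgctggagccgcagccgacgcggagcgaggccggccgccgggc

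The STX5 window is chr11:62832052-62832301 on the minus strand, and its match lay 16 to 9 bases before the start. SEC24A (chr5:134648580-134648639, plus strand) had its match 179 to 172 bases before the start. For COPB1 (chr11:14499826-14499885, minus strand) the distance was 48 to 41 bases, and for COPB2 (chr3:139389810-139389869, minus strand) it was 163 to 156. KDELR3 (chr22:38468024-38468083, plus strand) had it 46 to 39 bases before the start, and SURF4 spans chr9:133376061-133376310 on the minus strand. A match is a description of letters and not a bound site. Among tested genes the core was in 10 members and absent from 22. The median change in TALL-1 was 0.55 with the core and 0.61 without it, and in RPMI-8402 it was 0.43 and 0.46. With the fuller form, found in 4 tested members, it was 0.56 against 0.59 without it in TALL-1 and 0.46 against 0.45 in RPMI-8402. The medians with and without either form thus lay close together, and the difference was not tested.

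Most of these genes rose with NVS-ZP7-3 in TALL-1 and RPMI-8402. In the other lines very few were called, near the small shares called among all genes tested. A gene was called when its limma p-value, adjusted by Benjamini-Hochberg over all 10661 genes, was below 0.05. In TALL-1, 32 of 35 were higher and 0 lower, where 22.3% of all genes tested were higher and 19.6% lower. In RPMI-8402, 27 were higher and 1 lower, against 15.1% and 21.5% of all genes. In P12-ICHIKAWA, 1 was higher and 0 lower, against 4.91% and 2.98%, and in SUPT11 limma called 0 in either direction, against 1.18% and 0.582%. Every treated array lay above every DMSO array for 32 of the 35 genes in TALL-1 (25.5% of all genes) and 31 in RPMI-8402 (20.5%), and below for 1 in each (23.3% and 28.7%). The same count was 6 above and 0 below in SUPT11 (8.79% and 7.77%) and 3 above and 2 below in P12-ICHIKAWA (11.9% and 9.5%). The median log2 change of the 35 was 0.59 in TALL-1, 0.46 in RPMI-8402, 0.03 in SUPT11 and 0.01 in P12-ICHIKAWA. Over all genes tested it was 0 in TALL-1 and P12-ICHIKAWA, 1e-04 in SUPT11 and -0.02 in RPMI-8402.

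**Figure D1:**
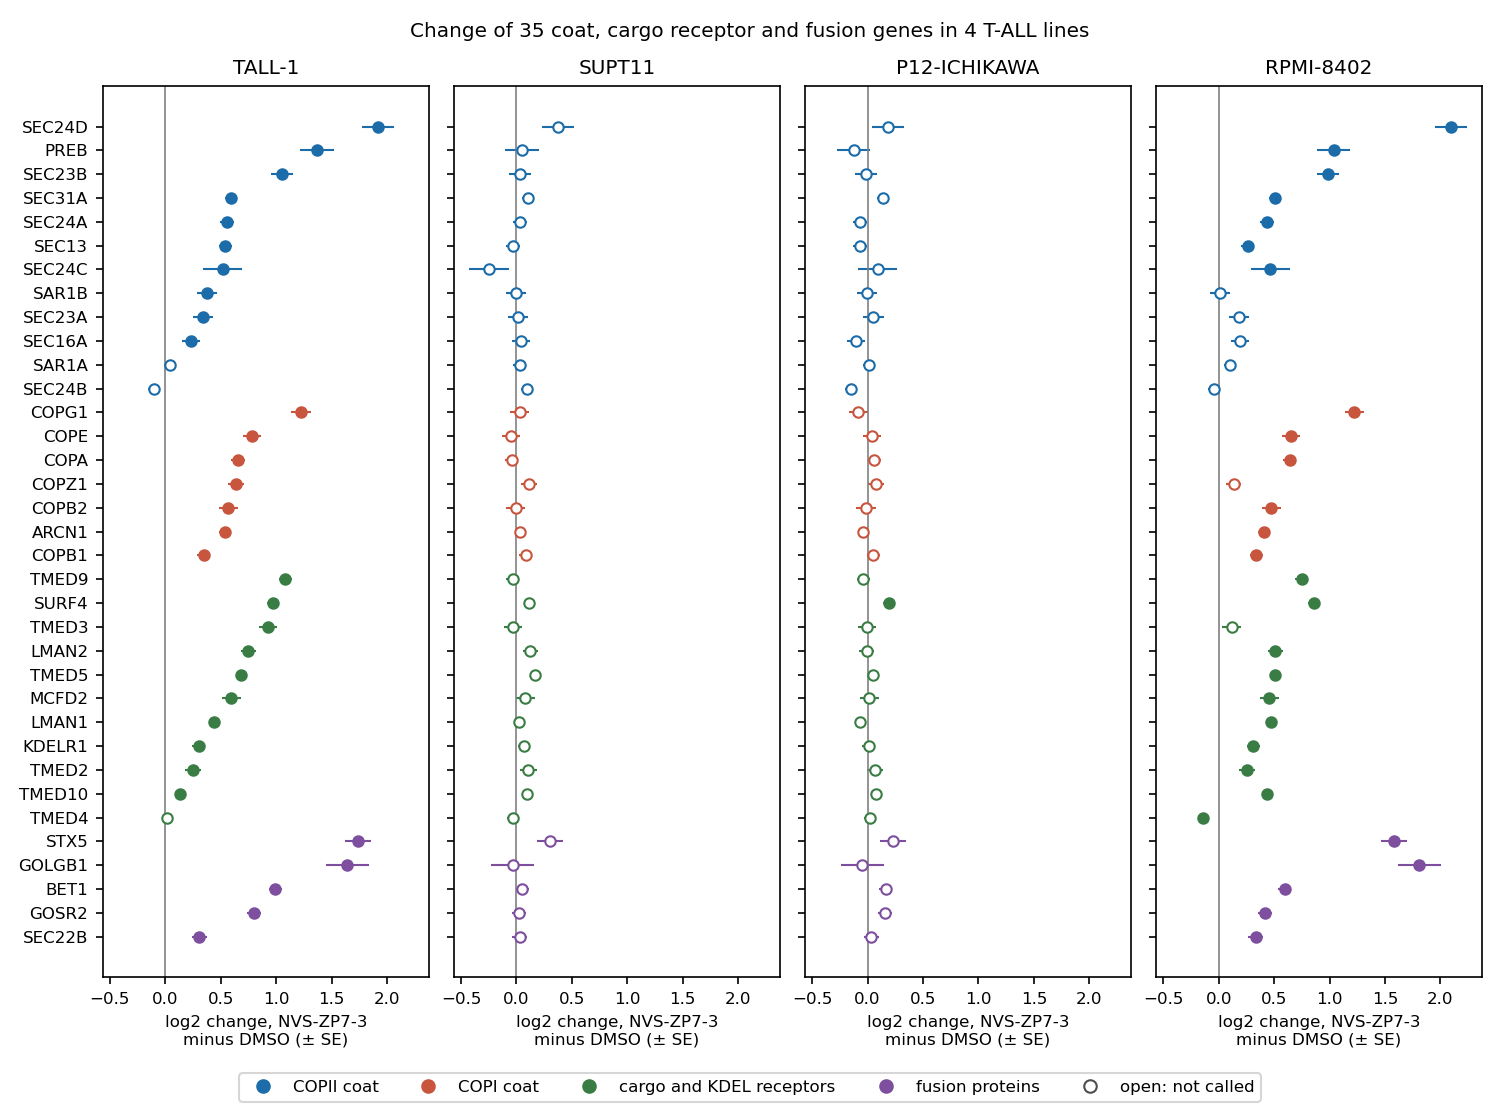
Log2 change (NVS-ZP7-3 minus DMSO, x axis, ± SE from limma) of the 35 tested genes in each line, coloured by group, with filled points called at an adjusted p below 0.05. In TALL-1 32 points are filled on the right of 0, while in SUPT11 all 35 are open and in P12-ICHIKAWA only SURF4 is filled.

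Of the COPII coat, 10 of 12 genes rose in TALL-1 and 7 of 12 in RPMI-8402. SEC24D, a cargo-binding subunit of the inner layer, had the largest change of all 35 in both lines. On the DMSO arrays of TALL-1 SEC24D was at 10.98, 10.63 and 11.01 (log2), and with NVS-ZP7-3 at 13.00, 12.75 and 12.62. In RPMI-8402 it went from 9.51, 9.31 and 9.62 to 11.60, 11.85 and 11.28. In both lines every treated array lay above every DMSO array, by 1.92 on average in TALL-1 (SE 0.144, 3.77-fold, limma adjusted p = 5.21e-09) and by 2.10 in RPMI-8402 (SE 0.144, 4.28-fold, adjusted p = 1.74e-09). In SUPT11 SEC24D read 10.01, 9.72 and 9.79 with DMSO and 10.19, 10.15 and 10.31 with the compound. In P12-ICHIKAWA the values were 8.41, 8.36 and 8.57 against 8.40, 8.81 and 8.68. The treated arrays were all above the DMSO arrays in SUPT11 and overlapped them in P12-ICHIKAWA, and neither change passed the test (0.37, adjusted p = 0.372, and 0.19, adjusted p = 0.542). SEC24D also has 2 dim probe sets that were not used, and they changed by 3.92 and 4.67 in TALL-1 and by 3.98 and 0.19 in RPMI-8402.

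SEC23B, the GTPase-activating subunit that pairs with SEC24, rose in the same lines. Its TALL-1 values were 12.75, 12.48 and 12.45 with DMSO and 13.64, 13.63 and 13.56 with the compound. In RPMI-8402 they were 11.24, 11.30 and 11.09, then 12.15, 12.15 and 12.29. The groups did not overlap in either line, with changes of 1.05 (SE 0.0976, adjusted p = 7.87e-08) and 0.98 (SE 0.0976, adjusted p = 2.68e-07). SUPT11 read 12.09, 12.13 and 12.14 against 12.21, 12.08 and 12.16, and P12-ICHIKAWA 11.60, 11.63 and 11.33 against 11.53, 11.69 and 11.29. In these lines treated and DMSO arrays overlapped and the changes were 0.03 and -0.02.

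PREB, the exchange factor that starts coat assembly, gave the second largest COPII change in TALL-1. Its levels there were 9.60, 8.99 and 9.12 with DMSO and 10.65, 10.66 and 10.50 with the compound. RPMI-8402 went from 9.74, 9.61 and 9.57 to 10.69, 10.69 and 10.64. The rises were 1.37 (SE 0.15, 2.58-fold, adjusted p = 6.77e-07) and 1.04 (SE 0.15, 2.05-fold, adjusted p = 2.64e-05), again without overlap. SUPT11 read 9.60, 9.64 and 9.85 against 9.91, 9.65 and 9.67. P12-ICHIKAWA read 9.92, 9.70 and 9.37 against 9.39, 9.82 and 9.41. These groups overlapped, and the changes of 0.05 and -0.12 did not pass the test.

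The smaller COPII rises were those of SEC31A (0.59 in TALL-1, 0.51 in RPMI-8402), SEC24A (0.55 and 0.44), SEC13 (0.54 and 0.26) and SEC24C (0.52 and 0.47). Both SEC24C calls were close to the threshold, with adjusted p of 0.0269 and 0.0489, and were lost when single arrays were left out, in 5 and 17 of 24 cases. In TALL-1 the COPII set was completed by SAR1B (0.37), SEC23A (0.34) and SEC16A, a scaffold of ER exit sites (0.23, adjusted p = 0.028). In RPMI-8402 these 3 changed by 0.01, 0.18 and 0.19 and did not pass the test. The SEC16A call was lost without DMSO array 2 or 3 or treated array 1 or 2 of TALL-1.

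The SEC24 and SEC23 paralogues carried unlike values. SEC24B, the closest listed relative of SEC24A, was called in no line. It read 12.67, 12.68 and 12.67 with DMSO and 12.64, 12.63 and 12.46 with the compound in TALL-1, a change of -0.10 (SE 0.0528, adjusted p = 0.136). In RPMI-8402 it read 13.05, 12.95 and 12.99 against 12.97, 12.89 and 13.01 (-0.04). In SUPT11 it read 12.48, 12.44 and 12.47 against 12.54, 12.49 and 12.66 (0.10), and in P12-ICHIKAWA 12.17, 12.13 and 12.20 against 11.95, 12.04 and 12.04 (-0.15, adjusted p = 0.0934). In 3 of the lines the groups did not overlap although the change did not pass, and in TALL-1 and RPMI-8402 the change of SEC24D was the largest of the family. The GTPase SAR1A was the other gene called in no line, at 0.04 in TALL-1, 0.10 in RPMI-8402, 0.03 in SUPT11 and 0.01 in P12-ICHIKAWA. Its 2 dimmer probe sets, readable on all 24 arrays, went the other way in every line. They changed by -0.03 and -0.06 in TALL-1, -0.15 and -0.12 in RPMI-8402 and -0.14 and -0.15 in SUPT11. In P12-ICHIKAWA they changed by -0.27 (SE 0.0884) and -0.26 (SE 0.1247). Over all genes tested, 39.8% were called in no line. Differences between paralogues were not tested.

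**Figure D2:**
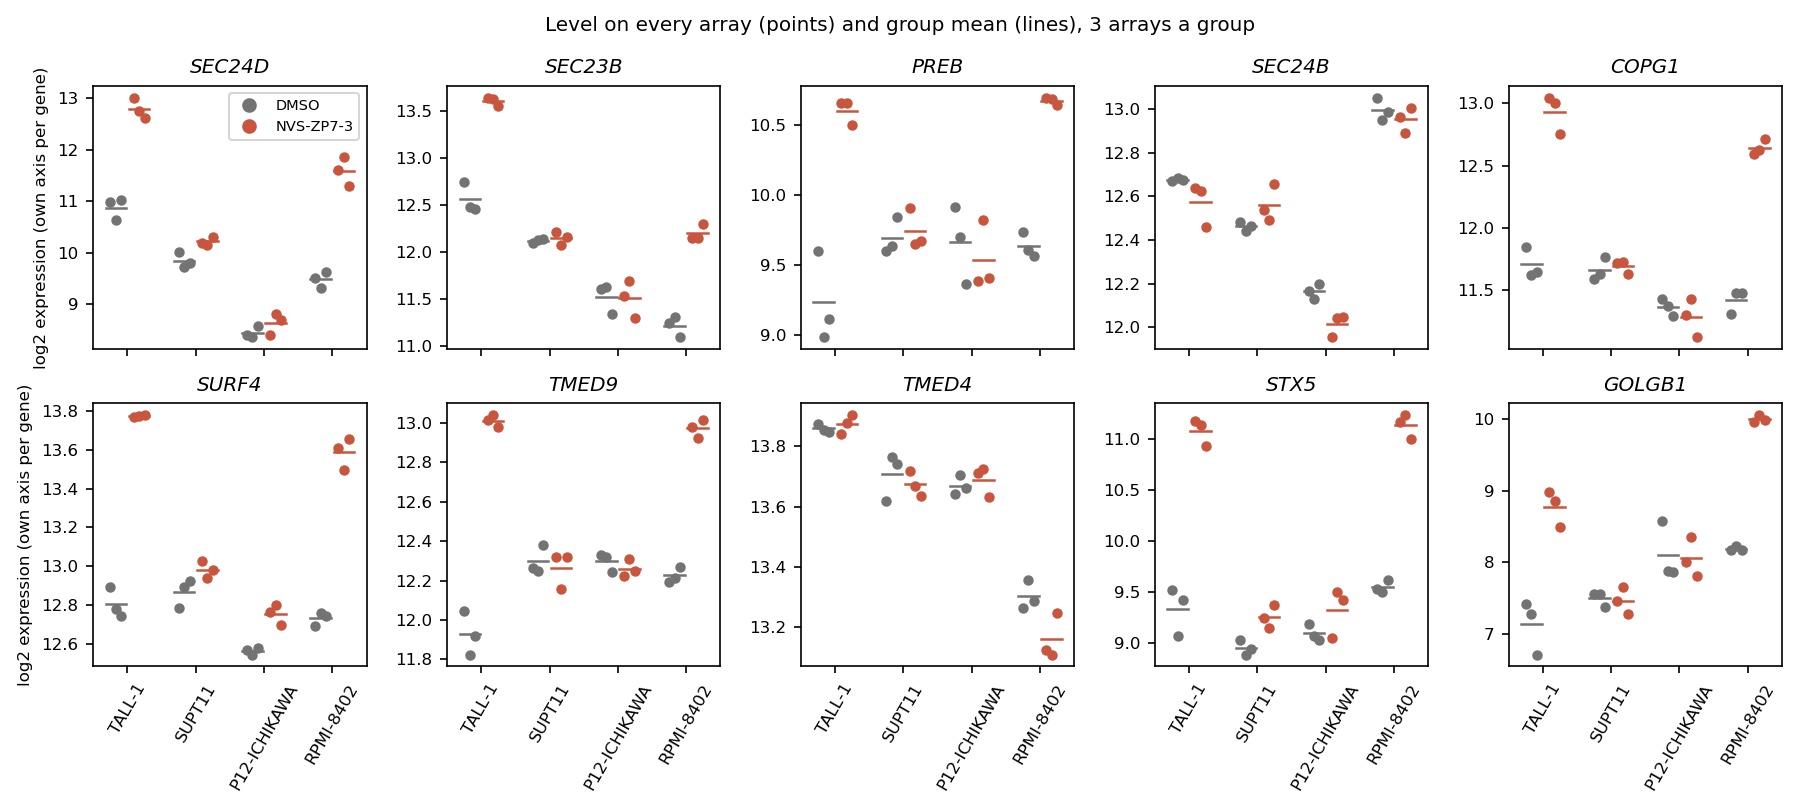
Log2 level on each array (points) and group mean (lines) of 10 genes in the 4 lines, with DMSO in grey and NVS-ZP7-3 in red; each gene has its own y axis, which does not start at 0. For SEC24D, SEC23B, PREB, COPG1, SURF4, TMED9, STX5 and GOLGB1 all red points lie above all grey points in TALL-1 and RPMI-8402, and for SEC24B and TMED4 they do not.

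All 7 COPI coat genes rose in TALL-1, and 6 of them in RPMI-8402. COPG1, the gamma subunit of coatomer, led in both. Its TALL-1 values were 11.85, 11.62 and 11.65 with DMSO and 13.04, 13.00 and 12.75 with the compound. In RPMI-8402 COPG1 read 11.31, 11.48 and 11.48, then 12.59, 12.63 and 12.72. Treated and DMSO arrays were apart in both lines, and the change was 1.22 in each (SE 0.0874, 2.34-fold, limma adjusted p = 2.53e-09 and 2.75e-09). SUPT11 read 11.59, 11.63 and 11.77 against 11.72, 11.73 and 11.63. P12-ICHIKAWA read 11.43, 11.37 and 11.30 against 11.30, 11.43 and 11.12. Both pairs overlapped, with changes of 0.03 and -0.08.

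The other coatomer subunits rose by less. COPE (epsilon) changed by 0.78 in TALL-1 and 0.65 in RPMI-8402, COPA (alpha) by 0.66 and 0.64, COPB2 (beta prime) by 0.57 and 0.48, ARCN1 (delta) by 0.54 and 0.41, and COPB1 (beta) by 0.34 in each. COPZ1 (zeta) was the exception between the lines, with a rise of 0.63 in TALL-1 (adjusted p = 7.21e-07) and 0.14 in RPMI-8402 (adjusted p = 0.145). The changes of the 7 subunits in TALL-1 ran from 0.34 to 1.22. In SUPT11 and P12-ICHIKAWA they stayed between -0.08 and 0.11, with 0 calls in limma.

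Among the cargo and KDEL receptors 10 of 11 tested genes rose in TALL-1, and 9 rose and 1 fell in RPMI-8402. SURF4, a receptor for soluble cargo, was called higher in 3 lines. It was 1 of the 35 (2.86%), near the share of all genes tested that were higher in at least 3 (2.73%). With DMSO its TALL-1 values were 12.89, 12.78 and 12.74, and with the compound 13.77, 13.78 and 13.78. RPMI-8402 went from 12.69, 12.76 and 12.74 to 13.61, 13.50 and 13.66. These rises were 0.97 (SE 0.0505, adjusted p = 3.8e-11) and 0.86 (SE 0.0505, adjusted p = 1.89e-10). In P12-ICHIKAWA SURF4 read 12.56, 12.54 and 12.58, then 12.77, 12.80 and 12.70, a rise of 0.19 (SE 0.0505, 1.14-fold, adjusted p = 0.0224). SUPT11 read 12.79, 12.89 and 12.92, then 13.03, 12.94 and 12.98, a change of 0.12 with adjusted p = 0.5. No treated array overlapped a DMSO array in any of the 4 lines. The P12-ICHIKAWA call was lost without DMSO array 1 or 2 or treated array 1 or 2 of that line.

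The TMED genes encode p24 proteins, which cycle between ER and Golgi and sort cargo such as lipid-anchored proteins. TMED9 had the largest change of the 6 tested in TALL-1 and RPMI-8402. Its TALL-1 levels were 12.04, 11.82 and 11.92 with DMSO and 13.01, 13.04 and 12.98 with the compound. In RPMI-8402 TMED9 read 12.19, 12.22 and 12.27, then 12.98, 12.92 and 13.02. The groups were apart and the rises were 1.08 (SE 0.058, adjusted p = 5.16e-11) and 0.75 (SE 0.058, adjusted p = 8.94e-09). SUPT11 (12.27, 12.25 and 12.38 against 12.32, 12.16 and 12.32) and P12-ICHIKAWA (12.33, 12.32 and 12.24 against 12.22, 12.31 and 12.25) overlapped, at -0.03 and -0.04.

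TMED4 was the single gene called lower in any line. In RPMI-8402 it read 13.26, 13.36 and 13.28 with DMSO and 13.12, 13.11 and 13.25 with the compound, and it fell by 0.14 (SE 0.0479, adjusted p = 0.0258) with no overlap. In TALL-1 it read 13.88, 13.86 and 13.85 against 13.84, 13.88 and 13.90, a change of 0.01. SUPT11 (13.62, 13.76 and 13.74 against 13.72, 13.67 and 13.64) and P12-ICHIKAWA (13.64, 13.71 and 13.66 against 13.71, 13.72 and 13.63) overlapped, at -0.03 and 0.02. The fall was lost when DMSO array 2 or treated array 1 or 2 of RPMI-8402 was left out, under 7 other settings at the same threshold, and at both stricter thresholds. A second TMED4 probe set changed by 0.05 and the next by -0.49 in that line.

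The remaining p24 genes rose in TALL-1 by 0.92 (TMED3), 0.68 (TMED5), 0.25 (TMED2) and 0.14 (TMED10). In RPMI-8402 TMED5 rose by 0.51, TMED10 by 0.43 and TMED2 by 0.25, while TMED3 changed by 0.12 (adjusted p = 0.303). The TMED10 call in TALL-1 (adjusted p = 0.0176) was lost without DMSO array 1 or treated array 2 or 3 of that line, and the TMED2 call in RPMI-8402 without treated array 1. The lectin LMAN1 and its partner MCFD2, which together export clotting factors, rose by 0.44 and 0.59 in TALL-1 and by 0.47 and 0.46 in RPMI-8402. LMAN2, another lectin, rose by 0.75 and 0.51. KDELR1, which returns escaped ER chaperones, rose by 0.30 and 0.31.

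All 5 fusion and tethering genes rose in both TALL-1 and RPMI-8402. STX5, the Golgi syntaxin, read 9.52, 9.07 and 9.42 in TALL-1 with DMSO and 11.17, 11.13 and 10.92 with the compound. In RPMI-8402 it read 9.53, 9.50 and 9.62, then 11.16, 11.23 and 11.00. The rises were 1.74 (SE 0.116, 3.34-fold, adjusted p = 9.82e-10) and 1.58 (SE 0.116, 2.99-fold, adjusted p = 3.96e-09), with clear separation of the arrays. SUPT11 read 9.03, 8.89 and 8.94, then 9.25, 9.15 and 9.38. P12-ICHIKAWA read 9.19, 9.07 and 9.04, then 9.06, 9.50 and 9.42. The SUPT11 groups did not overlap and the P12-ICHIKAWA groups did, and neither change passed (0.31, adjusted p = 0.352, and 0.23, adjusted p = 0.286).

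GOLGB1 encodes giantin, the long tether of the Golgi rim. It read 7.41, 7.28 and 6.71 in TALL-1 with DMSO and 8.98, 8.85 and 8.49 with the compound. RPMI-8402 went from 8.17, 8.22 and 8.18 to 9.95, 10.05 and 9.99. GOLGB1 rose by 1.64 (SE 0.193, adjusted p = 1.46e-06) and by 1.81 (SE 0.193, adjusted p = 6.44e-07), and a dimmer probe set of the gene changed by 1.07 and 1.44. SUPT11 read 7.55, 7.56 and 7.38 against 7.46, 7.66 and 7.27, and P12-ICHIKAWA 8.57, 7.88 and 7.87 against 8.01, 8.35 and 7.81. Both overlapped, at -0.03 and -0.05. The SNARE genes BET1, GOSR2 and SEC22B rose by 0.99, 0.80 and 0.31 in TALL-1 and by 0.59, 0.42 and 0.33 in RPMI-8402.

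Of the 35 genes, 27 were higher in both TALL-1 and RPMI-8402, where 9.31% of all genes tested were. These 27 were 84.4% of the 32 called higher in TALL-1 and all of those in RPMI-8402. With so many of the 35 called in each line, most of this overlap follows from the counts of the single lines. It is not a separate result. Across the 35 genes the log2 changes in the 2 lines correlated with Pearson r = 0.908 and Spearman rho = 0.825, and across all genes tested with r = 0.404. This is a description over genes, which are not independent replicates and share the arrays of each line. None of the 35 was higher in one line and lower in another, which is near the share of all genes (1.76%).

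**Figure D3:**
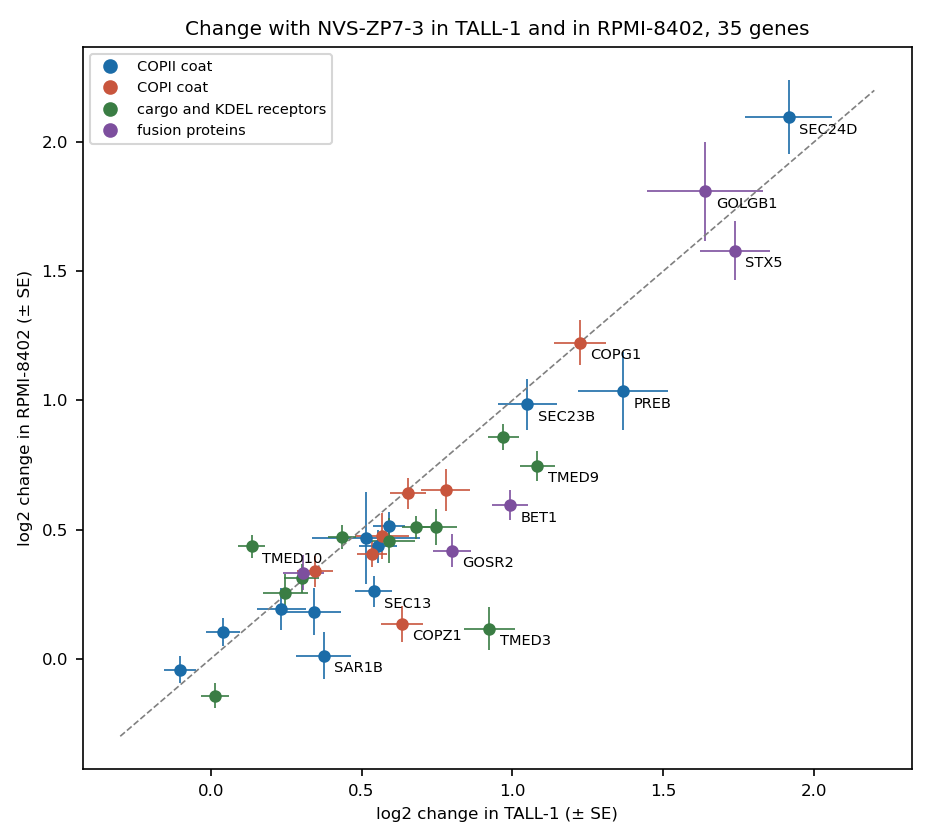
Log2 change in TALL-1 (x axis) against RPMI-8402 (y axis), both ± SE, for the 35 tested genes, coloured by group, with a dashed line of equal change. SEC24D, STX5 and GOLGB1 lie at the upper right near the line, and TMED3, COPZ1 and SAR1B lie well to the right of it.

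TALL-1 and RPMI-8402 differed for a few genes when the changes themselves were compared, a contrast chosen after the values were seen. The change was larger in TALL-1 for 7 genes (14.9% of all genes tested): TMED3 by 0.81 (SE 0.118, limma adjusted p = 6.61e-05), COPZ1 by 0.50 (SE 0.0993, adjusted p = 0.00133), BET1 by 0.40, GOSR2 by 0.38, SAR1B by 0.36, TMED9 by 0.34 and SEC13 by 0.28. It was larger in RPMI-8402 for TMED10 (8.7% of all genes), where TALL-1 minus RPMI-8402 was -0.30 (SE 0.0616, adjusted p = 0.00176). For SEC24D, STX5, GOLGB1, PREB and COPG1, the 5 largest changes in each of the 2 lines, the difference did not pass the test.

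Across all 4 lines the change differed in 27 of the 35 genes (F test of the interaction of line and treatment in limma, adjusted p below 0.05), against 35.8% of all genes. This held for all 7 COPI genes, all 5 fusion genes, 9 of 11 receptors and 6 of 12 COPII genes. Set against the mean change of the other 3 lines, the change was above in TALL-1 for 25 genes (16.9% of all genes) and in RPMI-8402 for 16 (7.08%). It was below in SUPT11 for 21 (8.08%) and in P12-ICHIKAWA for 23 (4.73%), with 0 above in P12-ICHIKAWA (3.65%) and 0 below in TALL-1 (11.8%) and RPMI-8402 (11.4%). The exception was SEC24B, for which SUPT11 lay above the other lines by 0.20 (SE 0.061, adjusted p = 0.0365), where 7.17% of all genes did. For SUPT11 and P12-ICHIKAWA the mean of the other lines includes both TALL-1 and RPMI-8402. Lying below that mean thus follows in part from the rises in those lines and is not a separate result.

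On the brightest probe sets, the small changes in SUPT11 and P12-ICHIKAWA had narrow intervals. At an unadjusted p below 0.05, 5 genes were higher in SUPT11 (SEC24D, SURF4, TMED5, TMED10 and STX5) and 0 lower, against 5.07% and 3.63% of all genes. In P12-ICHIKAWA 4 were higher (SEC31A, SURF4, BET1 and GOSR2) and SEC24B was lower, against 11% and 8.97%. The 95% interval of the change stayed below 0.5 for 33 of 35 genes in SUPT11 and for 35 of 35 in P12-ICHIKAWA. The highest upper bounds were those of SEC24D, at 0.68 and 0.49. Other probe sets are not covered by these intervals. For 19 genes with a next-brightest probe set at log2 4 on all arrays, its median change was 0.07 in SUPT11 and 0.06 in P12-ICHIKAWA. Among them, that of SEC22B changed by 0.47 and 0.77 (SE 0.175 each), and that of MCFD2 by -0.35 and -0.14 (SE 0.115 each).

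With DMSO alone the level of 34 of the 35 genes differed among the lines, as did 96.3% of all genes tested. The spread was moderate: the median range of the line means was 0.50 for these genes and 1.26 for all genes, and 9 of 35 (25.7%) had a range over 1, against 59.8%. The widest was SEC24C, at 11.22 in TALL-1, 10.65 in RPMI-8402, 10.35 in P12-ICHIKAWA and only 2.93 in SUPT11. Its SUPT11 arrays read 3.50, 2.70 and 2.59 with DMSO and 2.55, 2.81 and 2.68 with the compound, all near the floor, and SEC24C has no other probe set in the table. SEC24D ranged from 8.44 in P12-ICHIKAWA to 10.87 in TALL-1, SAR1B from 11.37 in TALL-1 to 13.39 in SUPT11, and TMED10 from 13.13 in RPMI-8402 to 14.59 in TALL-1. TMED2 was the single gene not called, with a range of 0.12.

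For genes called in a line, other probe sets bright enough to read mostly gave the same direction and often a larger change. Where a gene was not called the signs often differed, as for SAR1A in every line. For 19 genes the next-brightest probe set reached log2 4 on all 24 arrays. In TALL-1, 17 of the 19 were called higher, the next probe set was positive in all 17 and larger in 15, and the median change of the 19 was 0.44 on the brightest and 0.78 on the next. In RPMI-8402 it was positive in all 14 called and larger in 10, with medians of 0.42 and 0.46. TMED2 changed by 0.25 on the brightest and 1.05 on the next in TALL-1, LMAN1 by 0.44 and 1.35, and KDELR1 by 0.30 and 0.91. In the other direction, GOSR2 in RPMI-8402 changed by 0.42 and 0.04, and MCFD2 by 0.46 and 0.06. Of 39 called combinations of gene and line with another probe set that passed the same filter on low values (log2 4 on 3 arrays), the sign was shared by all such probe sets in 38, the exception being TMED4 in RPMI-8402. Dimmer probe sets were left out of this count, among them one of COPB2 near the floor that changed by -0.16 in RPMI-8402 where the brightest rose by 0.48, and probe sets of COPE, LMAN2 and TMED3 that stayed at or near the floor.

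**Figure D4:**
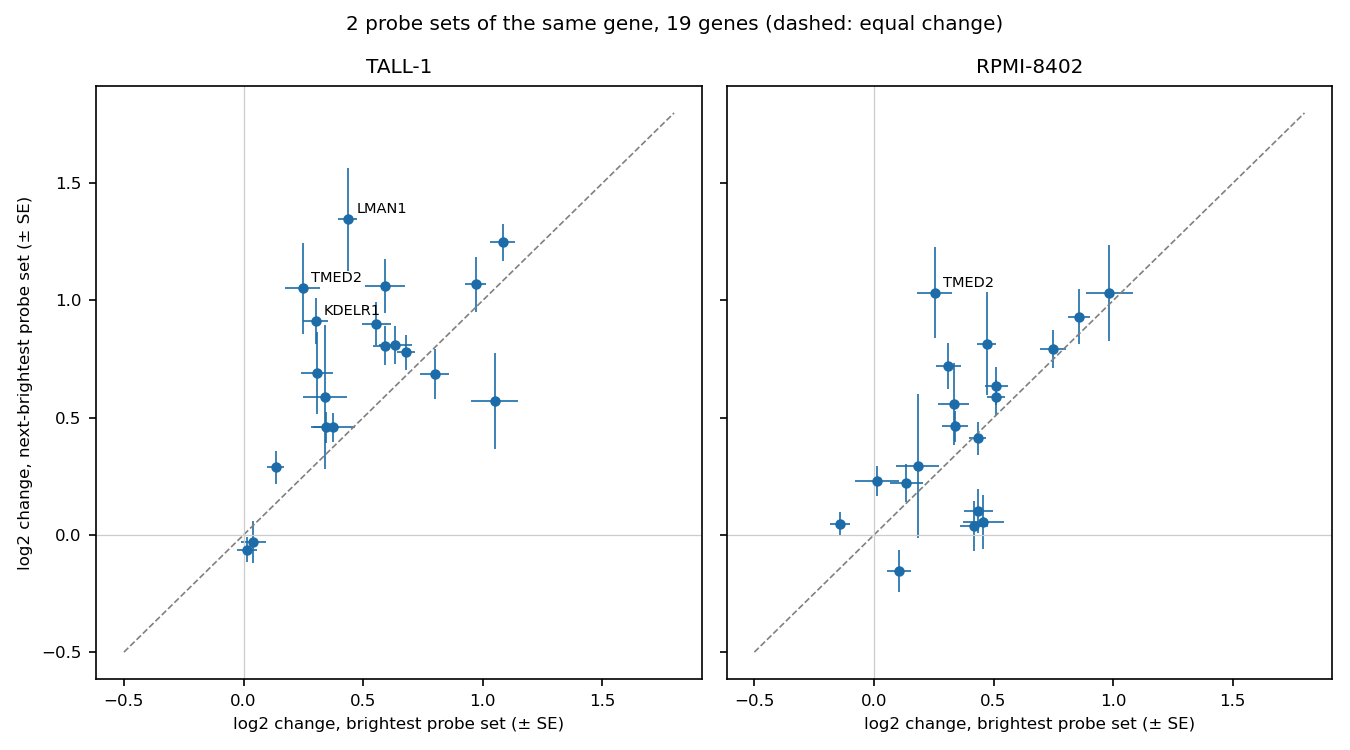
Log2 change on the brightest (x axis) and next-brightest (y axis) probe set of the same gene, ± SE, for 19 genes in TALL-1 and RPMI-8402, with a dashed line of equal change. In TALL-1 15 of the 17 genes called higher lie above the line, with LMAN1, TMED2 and KDELR1 farthest from it.

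Neighbouring pathways were read from lists of further genes, to be set against the shares of all genes tested: 22.3% higher and 19.6% lower in TALL-1, 15.1 and 21.5% in RPMI-8402, 4.91 and 2.98% in P12-ICHIKAWA and 1.18 and 0.582% in SUPT11. Among 18 tested genes of ER exit sites outside the coat list, 11 were higher and 1 lower in TALL-1 (61.1 and 5.56%), 8 and 0 in RPMI-8402 (44.4 and 0%), 1 and 0 in SUPT11 and 2 and 2 in P12-ICHIKAWA. CREB3L2, a membrane-bound transcription factor known to activate SEC23A in secretory cells, rose in all 4 lines, by 1.17 in RPMI-8402, 1.01 in P12-ICHIKAWA, 0.71 in TALL-1 and 0.56 in SUPT11 (limma adjusted p at most 0.000251). MIA2, a cargo adaptor of exit sites, rose by 1.43 in TALL-1, 1.33 in RPMI-8402 and 0.62 in P12-ICHIKAWA, and changed by 0.24 in SUPT11. YIF1A fell by 0.88 in P12-ICHIKAWA and rose by 0.40 in TALL-1.

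Of 12 further COPI and ARF genes, 6 were higher and 1 lower in TALL-1 (50 and 8.33%), and 3 and 2 in RPMI-8402 (25 and 16.7%), with 0 calls in the other lines. ARF4, a GTPase of the early Golgi, rose by 0.84 in TALL-1 and 0.57 in RPMI-8402. ARF1, the GTPase that recruits coatomer, rose by 2.34 and 2.23, but on a dim probe set with DMSO means of 3.40 and 3.30, the only one the annotation gave to ARF1 alone. COPG2, the paralogue of COPG1, fell in RPMI-8402 by 0.63 (adjusted p = 0.015), with -0.32 in TALL-1 (adjusted p = 0.201), and ARF5 fell by 0.33 in RPMI-8402.

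Of 34 other tethers and SNARE genes, 17 were higher and 0 lower in TALL-1 (50 and 0%), 8 and 7 in RPMI-8402 (23.5 and 20.6%), 2 and 0 in P12-ICHIKAWA and 0 and 0 in SUPT11. GOLGA2, a tether of the cis-Golgi, rose by 1.16 in both TALL-1 and RPMI-8402. RAB6A rose by 1.26 and 2.02 on a dim probe set, with DMSO means of 4.50 and 3.68. TRAPPC2L fell by 0.64 and RAB1B by 0.27 in RPMI-8402. Of 27 clathrin and adaptor genes, which serve later steps of transport, 6 were higher and 2 lower in TALL-1 (22.2 and 7.41%) and 3 and 4 in RPMI-8402 (11.1 and 14.8%), with 0 calls in the other lines. The shares of tethers and SNARE genes lower in RPMI-8402 and of clathrin and adaptor genes higher in TALL-1 were near those of all genes. AP3D1 rose by 0.60 and 0.41 and AP4B1 by 0.32 and 0.34, while AP4M1 fell by 0.40 and 0.66. CLTB changed by -0.22 and -0.31 in these lines and was called lower on average over the 4 lines. The median change in TALL-1 was 0.27 for exit site genes, 0.28 for COPI and ARF genes, 0.20 for tethers and SNARE genes and 0.03 for clathrin and adaptor genes.

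**Figure D5:**
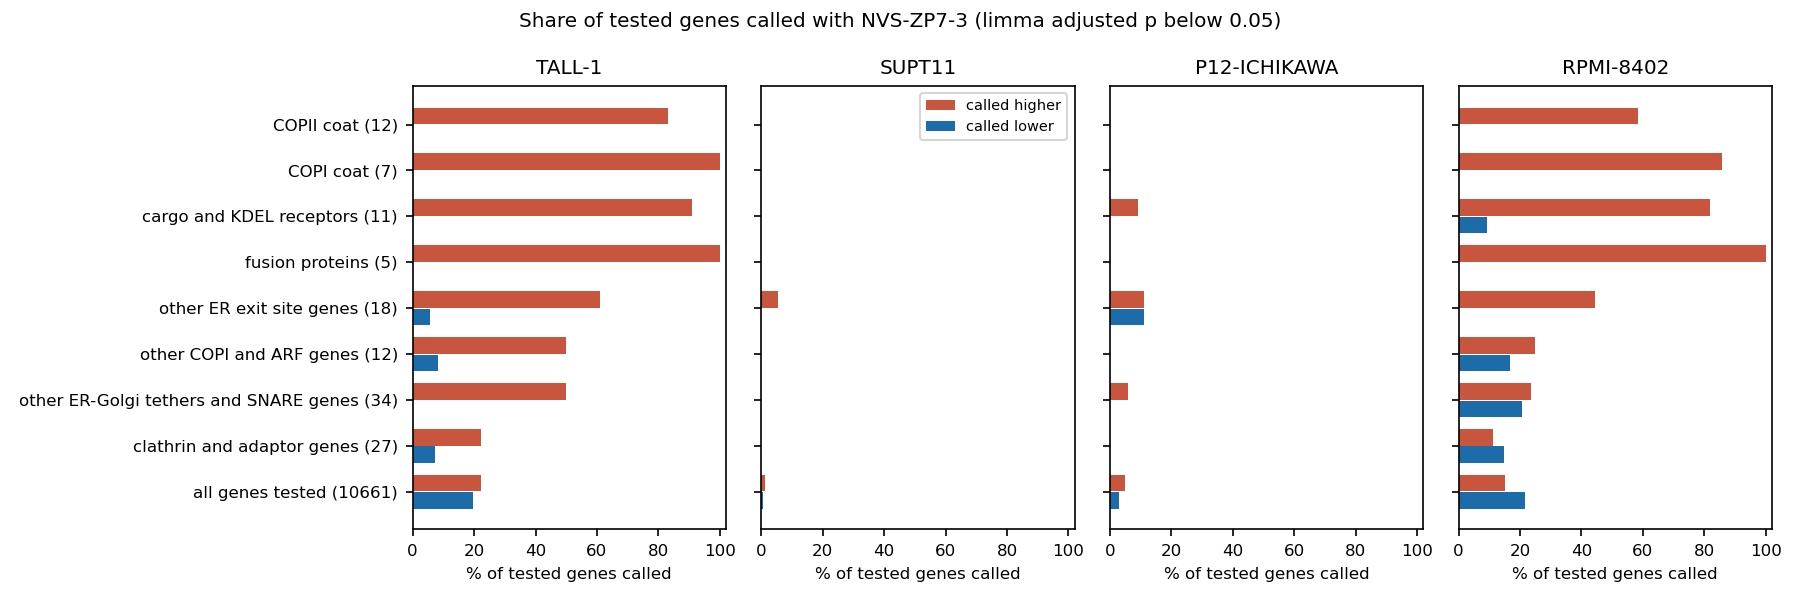
Percentage of the tested genes of each list (number in brackets) called higher (red) or lower (blue) in each line. In TALL-1 and RPMI-8402 the 4 groups described here stand between 58.3 and 100% higher, and clathrin and adaptor genes at 22.2 and 11.1%, beside 22.3 and 15.1% of all genes.

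Arrays of a group correlated at 0.993 to 0.998 across genes, and 10 or 11 of 12 T lineage markers were at log2 4 or more on all arrays of each group. Their mean level per array was 10.81 to 11.03 with DMSO and 10.21 to 10.37 with the compound in TALL-1, and 9.69 to 9.71 and 9.19 to 9.30 in RPMI-8402, lower on every treated array than on every DMSO array. It was 9.82 to 9.85 and 9.72 to 9.80 in SUPT11, also without overlap, and 10.05 to 10.13 and 9.97 to 10.07 in P12-ICHIKAWA, with overlap. The markers did not move alike. In RPMI-8402 CD2 read 8.7, 8.9 and 8.8 with DMSO and 4.9, 5.5 and 5.2 with the compound. GATA3 there read 10.4, 10.3 and 10.3, then 10.5, 10.6 and 10.6. In TALL-1 CD1A read 10.6, 10.2 and 10.4, then 7.5, 7.8 and 8.0, and CD3E 12.9, 12.9 and 13.0, then 12.8, 12.8 and 12.9. Transcripts foreign to a line were sought among genes below log2 2.5 on its other arrays. These genes also had to exceed log2 10 on at least 6 arrays of other lines. Such a gene counted as raised above log2 3. The rule misses genes raised on several arrays of a line, and it left out HBB. A low count thus does not show an array free of foreign transcripts. Array 2 of treated TALL-1, array 2 of treated SUPT11 and DMSO array 3 of RPMI-8402 stood apart. They had 31 of 272, 19 of 157 and 17 of 133 such genes raised, and other arrays at most 2. Without these 3 arrays 29 of the 35 genes were higher in TALL-1 and 26 in RPMI-8402. Of the markers of other cell types, HBB lay between 7.96 and 11.45 on the treated arrays of P12-ICHIKAWA, against at most 2.29 on its DMSO arrays. In RPMI-8402 HBB read 9.42, 2.32 and 14.65 with DMSO and 10.48, 8.63 and 12.99 with the compound. It also read 7.96 on treated array 1 of TALL-1 and 10.61 on treated array 2 of SUPT11. The mean level of the 3 erythroid markers measured was 2.18 to 2.23 on the DMSO and 2.18 to 4.11 on the treated arrays of TALL-1, and 2.23 to 9.84 and 4.33 to 5.79 in RPMI-8402. That of the 6 myeloid markers was 2.18 to 3.26 and 2.18 to 3.53 in TALL-1, and 2.18 to 5.47 and 2.64 to 3.52 in RPMI-8402. CD14, CSF1R and MPO lay at or near the floor on every array, and LYZ did not. In TALL-1 LYZ read 5.4, 8.6 and 2.2 with DMSO, then 9.0, 2.2 and 2.3. In RPMI-8402 it read 4.3, 2.2 and 12.5, then 6.3, 4.9 and 9.9. In P12-ICHIKAWA it read 2.3, 2.9 and 3.0, then 8.0, 5.6 and 5.5, and SUPT11 reached 6.9 on treated array 2. S100A8 and S100A9 reached 9.6 and 4.0 on DMSO array 3 of RPMI-8402. Neither the 4 B cell markers nor the 5 epithelial and stromal markers had a member at log2 4 on any TALL-1 array, and RPMI-8402 had 1 of each list (CD79B and COL1A1) on all its arrays. With the HBB level as a covariate 32 and 26 genes were higher in TALL-1 and RPMI-8402, and SURF4 was no longer called in P12-ICHIKAWA. The difference between 3′ and 5′ ACTB control probe sets, a sign of RNA quality, was larger with the compound by 0.49 in TALL-1 and 0.30 in RPMI-8402 (exact permutation test, two-sided p = 0.1 each, the smallest that 3 against 3 arrays can give), and by 0.05 in SUPT11 and 0.04 in P12-ICHIKAWA. The same difference for the GAPDH controls changed by 0.002 in TALL-1, 0.04 in RPMI-8402, 0.03 in SUPT11 and -0.03 in P12-ICHIKAWA. By the same test its p was 0.9, 0.4, 0.5 and 0.6. Whether the 2 controls differed from each other was not tested. With the ACTB difference as a covariate, 25 genes were higher in TALL-1 and 26 in RPMI-8402: SAR1B, SEC16A, SEC24C, COPB1, KDELR1, TMED2 and TMED10 lost their call in TALL-1 and SEC24C in RPMI-8402. The part of these markers and of RNA quality in the rises was otherwise not tested.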

How the data were processed

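Gene expression was measured in 24 samples, 3 arrays for each of 8 combinations of T-ALL line and treatment (NVS-ZP7-3 or DMSO). Expression of 54675 probe sets was deposited by the authors in 1 table, in log2 units. GCRMA and limma are named in the submitters' processing notes, with no version or settings. The extraction used a Qiagen kit and the label protocol was Affymetrix's, per the labels' protocols. GCRMA places undetected probe sets at a common floor (2.18). Arrays carry no counts, so precision depends on how many there are and on how far a signal stands above the floor.

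Names came from the platform annotation, with symbols updated through RefSeq (GRCh38.p14): 41097 had 1 gene, 1801 several and 11777 none, and 41043 of the first matched RefSeq while 54 kept the older symbol. The brightest single-gene probe set stood for a gene, and a gene was tested if 3 or more arrays had it at or above log2 4 (10661). A model of 8 group means over all 24 arrays was fitted with limma 3.58.1 in R 4.3.3 (16 residual and 18.0 total degrees of freedom), with Benjamini-Hochberg adjustment of the p-values across all genes tested. The members and lists were chosen with earlier results of these data known.

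Genes described with every array were those called with a change of at least 1 in any line, the largest mean rise and the largest mean fall of each group, and any called in opposite directions. The neighbouring lists were given by the 2 largest rises and the 2 largest falls called on the mean of the 4 lines. On simulated arrays with 200 of 10661 genes changed per line, 85.1 to 92% were recovered at a log2 change of 1 and 51.6 to 67.9% at 0.5, with 4 to 12 false calls. The simulated noise was normal and independent between genes. The share changed was also unlike that called in TALL-1 (22.3% higher and 19.6% lower). These figures check the fit and do not give its power in these data. Alternatives were quantile normalization, centring of arrays on the median, averaging the probe sets of a gene, other filters and thresholds, a replicate block, an intensity trend, fitting a line by itself and dropping single arrays. Chosen after seeing the data were dropping 3 arrays and taking HBB, or ACTB 3′ minus 5′, as a covariate.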

Additional observations from a re-analysis of the deposited data

Results flagged for a closer look

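The change with NVS-ZP7-3 differed between the 4 lines in 27 genes by the F test of the interaction of line and treatment in limma, and the adjusted p of each follows. In the COPII coat the values were 3.94e-07 for SEC24D, 2.62e-06 for SEC23B, 3.21e-05 for PREB, 4.35e-05 for SEC24A, 5.12e-05 for SEC13 and 5.29e-05 for SEC31A. In the COPI coat they were 3.77e-08 for COPG1, 1.57e-06 for COPA, 5.85e-06 for ARCN1, 1.41e-05 for COPE, 0.000514 for COPZ1, 0.000999 for COPB2 and 0.0103 for COPB1. Among the receptors they were 4.51e-09 for TMED9, 2e-08 for SURF4, 7.96e-07 for TMED5, 2.62e-06 for LMAN1, 8.45e-06 for TMED3, 1.87e-05 for LMAN2, 0.000415 for TMED10, 0.00182 for MCFD2 and 0.00861 for KDELR1. Among the fusion proteins they were 1.89e-07 for BET1, 3.66e-07 for STX5, 8.48e-06 for GOSR2, 1.14e-05 for GOLGB1 and 0.0175 for SEC22B. The interaction was called in 35.8% of all genes tested.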

How the results depend on the processing

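Of the calls in TALL-1, 25 of 32 held under every setting that kept the threshold of 0.05 with no minimum change, and 29 of 32 under every array left out. In RPMI-8402 these were 24 and 25 of 28, and in P12-ICHIKAWA the single call held under neither. An adjusted p below 0.01 left 28 higher in TALL-1 and 25 in RPMI-8402. Leaving out each array in turn gave 29 to 32 genes higher in TALL-1 (29 without treated array 2), 25 to 28 in RPMI-8402 (25 without treated array 1), 0 to 2 in P12-ICHIKAWA (BET1 and GOSR2 without treated array 2) and 0 to 1 in SUPT11 (TMED5, without DMSO array 2 of RPMI-8402). The gene lower in RPMI-8402 ranged from 0 to 1, and the genes that differed between lines from 27 to 28. In RPMI-8402 SEC24C lost its call without any of that line's 6 arrays, and also without DMSO array 2 or 3 or any treated array of TALL-1, any treated array of SUPT11, or DMSO array 2 or treated array 1 or 2 of P12-ICHIKAWA. In TALL-1 it did so without DMSO array 2 or 3 or any treated array of that line.

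It is not settled whether the replicate numbers pair the samples. The deviations of same-numbered samples correlated between -0.14 and 0.42 over 12 pairs, with 3 over 0.1, and 6 correlated best with their own number. The highest value was that of replicate 3 of P12-ICHIKAWA, with -0.36 and -0.10 for the other numbers. With the replicate number as a block, 31 genes were higher in TALL-1, 26 in RPMI-8402, 0 in P12-ICHIKAWA and 0 in SUPT11, and 0 were lower in RPMI-8402. The count higher in P12-ICHIKAWA was also 0 with that line fitted alone, at an adjusted p below 0.01, with a minimum change of 0.5 and with HBB as a covariate. The count lower in RPMI-8402 was also 0 with quantile normalization, probe sets averaged per gene, arrays centred on their median, that line alone, an adjusted p below 0.01, a minimum change of 0.5, the 3 arrays left out and the ACTB covariate. TMED5 made the count higher in SUPT11 1 with no filter, an intensity trend or HBB as a covariate. A minimum change of 0.5 left 14 higher in RPMI-8402 and 23 in TALL-1. SEC16A in TALL-1 reversed to -0.0499 with the ACTB covariate. SEC24D moved to 3.50 in TALL-1 with the mean of its probe sets. Over all genes, fits of a line alone called 28 higher in SUPT11 and 159 in P12-ICHIKAWA, against 126 and 523. The cause of these shifts was not tested. Changes under the floor of 2.18 are not seen, which bears on SEC24C in SUPT11 and on KDELR3.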
